A study of Arabidopsis thaliana with 30 samples.

Results

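The 150 genes described here were those whose transcripts peaked briefly 12 h into cold, dark stratification of Arabidopsis thaliana seed (12 h S). They were taken from 37051 annotated nuclear genes by their levels in CPM (a gene's share of all counted reads of a library, scaled to the same total in each). Of 8362 nuclear genes with a mean of at least 10 CPM at 12 h S, 1299 had their highest mean there. The 150 with the largest ratio of the mean at 12 h S to the highest mean of any other time point, with 0.5 CPM added to each, were kept. The members were thus chosen by their measured CPM at 12 h S against the other time points, and every comparison that involves 12 h S is given as a description. The rule also kept the means of all other time points below that at 12 h S, which limited how far members could rise between them.

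The series followed wild-type Col0 seed, with no transgene or mutation, over 10 time points with 3 libraries each. Freshly harvested seed (H) and seed stored dry in the dark (0 h) were not wetted. Seed was then surface sterilised, plated on MS medium and held at 4 °C in the dark for 1 h, 12 h or 48 h, times written 1 h S, 12 h S or 48 h S. After 48 h at 4 °C it was moved to continuous light at 22 °C for 1 h, 6 h, 12 h, 24 h or 48 h (1 h SL to 48 h SL), the last time point being labelled seedling. The study's methods call the 3 replicates biological and say that all seed came from 1 batch of plants, so the p-values measure the spread between samples of that batch. Water, sterilisation, cold and darkness reached the seed together, and their parts at 12 h S cannot be told apart. In whole seeds, fewer cells of a type and less RNA per cell cannot be told apart either.

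The libraries held 8234345 to 76294780 counted reads, and the 3 libraries of 12 h S 45330963 to 61073629. The smallest library was 1 h S replicate 2. It was the highest of the 3 libraries of 1 h S for 80 of the 150 genes, and the summed level of 4 photosynthesis genes in the 1 h S libraries ran from 40.0 to 687 CPM. Replicate 3 of 12 h SL held 12038278 reads. Its 10 genes with the most reads took 19.3% of them, against 4.81% and 5.18% in replicates 1 and 2. At 1 h SL replicate 2 stood apart, with rank correlations of 0.965 and 0.966 with replicates 1 and 3, against 0.994 between those. The 6 seed storage and maturation genes that mark the labelled tissue summed to between 51898 and 55793 CPM at 12 h S and to between 321 and 351 CPM at 48 h SL, with no marker below 1 CPM at any time point. The 3 endosperm marker genes summed to between 1267 and 1978 CPM at 12 h S, below their range of 4660 to 5073 CPM at 0 h. They did not move together, since 1 of the 3 had its highest mean at 12 h S.

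A dry Arabidopsis seed holds stored transcripts, and new transcription starts within hours of water uptake. Abscisic acid, the hormone that keeps seed dormant, is made by 9-cis-epoxycarotenoid dioxygenases (NCEDs) and broken down by the CYP707A hydroxylases. It is sensed by the PYR/PYL receptors, which release SnRK2 protein kinases from inhibition. Cold, drought and wounding act on other factors found among the 150 genes, including DREB, WRKY and C2H2 zinc finger proteins.

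The sequences of 6 members illustrate the promoters of these genes. They are the 250 bases before the annotated start of the RefSeq TAIR10.1 reference, whose gene coordinates equal those of the deposited count table for all 150 genes. RAS1 and SRO5 are shown as genes near the top of the ranking, AT1G32928, AT4G29780 and AT4G27652 because they carry the CGCGT core, and AT3G12320 (LNK3) because it carries the G-box. Capitals mark TATAAA (the TATA box), CGCGT (the core bound by calmodulin-binding CAMTA factors) and CACGTG (the G-box), read on both strands. None of the 6 windows overlapped another annotated feature.
RAS1, chr1:3241864-3242113, minus strand: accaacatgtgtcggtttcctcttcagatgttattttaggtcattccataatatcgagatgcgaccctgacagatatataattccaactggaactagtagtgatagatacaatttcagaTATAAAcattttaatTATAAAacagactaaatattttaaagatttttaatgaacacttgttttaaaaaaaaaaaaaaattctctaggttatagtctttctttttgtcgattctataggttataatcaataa
SRO5, chr5:25097694-25097943, plus strand: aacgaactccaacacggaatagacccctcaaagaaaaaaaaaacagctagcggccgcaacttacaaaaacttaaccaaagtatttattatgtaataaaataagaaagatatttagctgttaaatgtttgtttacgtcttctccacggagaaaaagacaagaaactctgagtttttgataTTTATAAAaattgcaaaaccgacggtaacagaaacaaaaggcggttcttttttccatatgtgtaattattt
AT1G32928, chr1:11930899-11931148, plus strand: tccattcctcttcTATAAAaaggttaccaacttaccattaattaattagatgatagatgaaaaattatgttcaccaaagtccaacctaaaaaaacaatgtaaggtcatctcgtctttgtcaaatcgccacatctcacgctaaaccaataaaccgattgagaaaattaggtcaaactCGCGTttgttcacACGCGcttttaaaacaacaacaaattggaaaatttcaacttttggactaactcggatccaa
AT4G29780, chr4:14579313-14579562, plus strand: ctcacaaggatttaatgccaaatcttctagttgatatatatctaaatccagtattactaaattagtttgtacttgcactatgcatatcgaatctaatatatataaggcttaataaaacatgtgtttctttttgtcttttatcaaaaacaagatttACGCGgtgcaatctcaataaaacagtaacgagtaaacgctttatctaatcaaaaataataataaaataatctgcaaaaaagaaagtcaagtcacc
AT4G27652, chr4:13809529-13809778, plus strand: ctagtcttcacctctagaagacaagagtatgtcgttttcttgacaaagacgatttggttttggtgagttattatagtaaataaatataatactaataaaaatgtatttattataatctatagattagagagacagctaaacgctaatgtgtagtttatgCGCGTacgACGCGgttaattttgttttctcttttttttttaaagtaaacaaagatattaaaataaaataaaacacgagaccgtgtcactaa
AT3G12320, chr3:3923265-3923514, plus strand: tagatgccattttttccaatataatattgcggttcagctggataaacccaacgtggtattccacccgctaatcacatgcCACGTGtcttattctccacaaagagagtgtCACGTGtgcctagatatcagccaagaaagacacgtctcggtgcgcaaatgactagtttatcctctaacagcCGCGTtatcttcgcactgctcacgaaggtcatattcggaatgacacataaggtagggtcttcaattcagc

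Motif shares were counted over the 300 bases from 250 before to 50 after the start, in the 147 protein-coding members. TATAAA was present in 68.0% of the members, 50.8% of the protein-coding genes with at least 10 CPM at 12 h S and 52.1% of all protein-coding promoters. CGCGT was present in 17.0%, 10.8% and 8.7% of the same groups, that is in 25 members. GGGCC, the core of the site II element of many growth genes, was present in 10.2% of the members, 2238 of 8277 expressed genes and 18.3% of all promoters. The ACGTG core of the abscisic acid response element, which also lies within CACGTG, stood at 27.9%, 28.6% and 26.7%, and CACGTG itself at 8.8%, 10.6% and 7.7%. The W-box core TTGAC stood at 50.3%, 49.8% and 50.5%. The shares of TATAAA and CGCGT were thus higher in the members than in expressed genes and that of GGGCC lower, differences that were not tested, while the shares of ACGTG and TTGAC lay within 1 percentage point of those of expressed genes. These matches are letters in a window, given as a description.

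The members were compact genes. Of the 147 protein-coding members, 50 (34.0%) had a single exon in every annotated transcript. Of the protein-coding genes with at least 10 CPM at 12 h S, 688 of 8278 (8.3%) did. The median smallest exon number was 2 against 5. The median exon length was 1530 bases, against 1766 bases. The remaining 3 members were non-coding RNA genes, AT5G03085, AT4G05685 and AT3G45638. They lay on chromosomes 1 to 5 in numbers of 39, 18, 22, 28 and 43. In 7 cases pairs of members lay within 10000 bases of each other, among them AT4G27652 and AT4G27654, and AT1G32920 and AT1G32928. The library preparation did not keep strand, and 28 members were overlapped by a feature on the opposite strand, so that reads from the overlap cannot be told apart.

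Together the 150 genes took 23042, 25317 and 26001 CPM in the libraries of 12 h S. The summed level was 2862 ± 63.0 CPM at H (SD, n = 3), 3301 ± 13.8 at 0 h and 3698 ± 324 at 1 h S. It was 4249 ± 164 CPM at 48 h S and 3336 ± 212 CPM at 1 h SL, and between 1964 and 2283 CPM from 6 h SL on. The summed level at 12 h S lay above that of all other time points, which the choice of genes fixed.

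**Figure D1:**
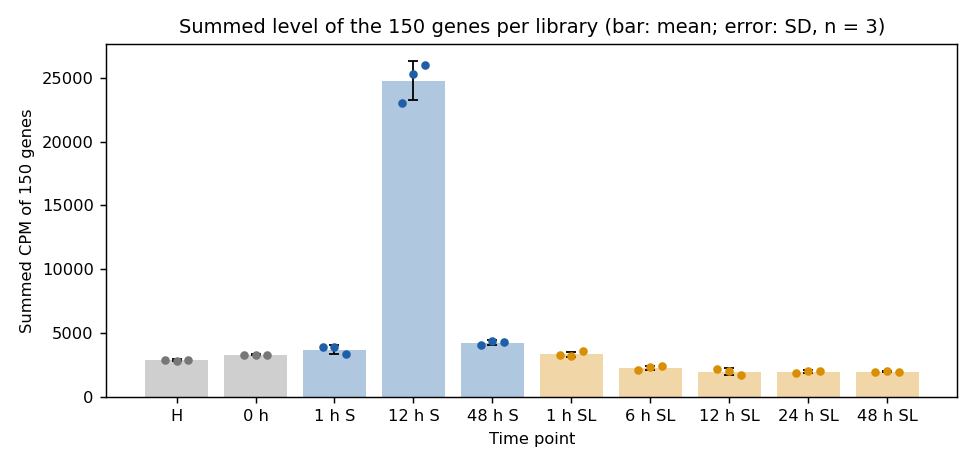
Summed level of the 150 genes in CPM (y axis) in each library (points) at the 10 time points (x axis), with the mean (bar) and SD (error bar, n = 3); grey is dry seed, blue stratification and orange light. The 3 libraries of 12 h S lie between 23042 and 26001 CPM and the other 27 lie between 1671 and 4382 CPM.

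The ratio that ranked the genes ran from 31.1 for AT2G38240 to 2.51 for the receptor-like kinase gene PERK9, with a median of 3.67. The same rule took 150 genes with ratios of 4.56 to 1.44 at 48 h S and 11.7 to 1.70 at 24 h SL. The mean of a member at 12 h S was a median of 6.99 times that at 0 h (range 2.56 to 213), 6.44 times that at 1 h S and 5.69 times that at 48 h S. The next highest mean was at 48 h S for 46 members, at 1 h S for 29, at 1 h SL for 19 and at 0 h for 17. For all 150 members each library of 12 h S lay above each of the other 27 libraries, as it did for 795 of the 8362 genes with at least 10 CPM at 12 h S (9.51%). Since the levels at 12 h S chose the members, nothing is read from that count. Just inside the limit were the MYB-like gene AT1G68670, the non-coding RNA AT3G45638 and PERK9, all at 2.51, and just outside were AT1G79160 and the heat shock factor gene HSFA1E, both at 2.49, and DEAR2 at 2.48.

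The choice of genes was repeated without the libraries of each replicate number in turn, and the 150 genes so taken were read in the libraries left out. In replicates 1, 2 and 3 in turn, 150, 149 and 150 were highest at 12 h S, against 13%, 15.7% and 16% of genes with at least 10 CPM at 12 h S in the left-out library. The median ratio in the left-out libraries was 3.39, 3.68 and 3.91, in the same order. The exception was AT2G01735, which is not among the 150 and stood at 15.9 CPM at 12 h S and 141 CPM at 12 h SL in replicate 2.

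The largest ratio belonged to AT2G38240 (chr2:16012535-16014991), annotated as a 2-oxoglutarate and iron-dependent oxygenase. Its level was 82.9, 138 and 142 CPM at 12 h S, while the 3 libraries of 0 h held 1.11, 1.14 and 1.18 CPM and those of 48 h S 1.37, 1.80 and 1.71 CPM. No other library passed the 5.59 CPM of 1 h S replicate 2. The transcript was thus close to absent on both sides of 12 h S.

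RAS1, a gene annotated as responding to abscisic acid and salt, held 131, 143 and 171 CPM at 12 h S. Its highest other library was again 1 h S replicate 2, with 9.84 CPM, and the libraries of 48 h S held 1.68, 2.26 and 2.43 CPM. AT5G61390 (NEN2, an exonuclease-domain protein of phloem enucleation) held 374, 547 and 552 CPM at 12 h S and 17.4 to 19.3 CPM at 0 h. All 3 genes had their second highest mean at 1 h S, but without 1 h S replicate 2 that of RAS1 was at 6 h SL, with 4.65 CPM against 3.56 CPM at 1 h S.

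SRO5 (chr5:25097944-25099907), a member of the RCD1 family of stress proteins, was the member with the highest CPM at 12 h S, with 1295, 1084 and 1370 CPM. The libraries of 0 h held 54.4, 54.9 and 54.5 CPM and those of 48 h S 38.8, 41.7 and 49.4 CPM. SRO5 overlaps AT5G62530 (P5CDH, an enzyme of proline breakdown) on the opposite strand. P5CDH stood at 8.56 ± 1.36 CPM at 12 h S and 8.15 ± 0.45 CPM at 0 h (SD, n = 3), so its count did not move with that of SRO5. Per kilobase of exon SRO5 stood at 701 CPM at 12 h S, below AT4G39675 with 875 and AT1G32920 with 802, both uncharacterised, while IPT1, a cytokinin synthesis gene, was lowest with 7.43.

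The rest of the 10 leading genes showed the same gap between groups. PP2-B1, a phloem lectin-like F-box gene, held at least 533 CPM at 12 h S and at most 82.5 CPM elsewhere. AT5G16360 held at least 271 CPM against at most 31.7, and AT1G69890 at least 376 against at most 58.6. AT1G72900, with the TIR domain of disease resistance proteins, held at least 75.5 CPM against at most 7.84. AT4G33985 held at least 169 CPM against at most 22.9. DREB2B, a transcription factor of drought and heat responses, held at least 43.1 CPM against at most 6.49.

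**Figure D2:**
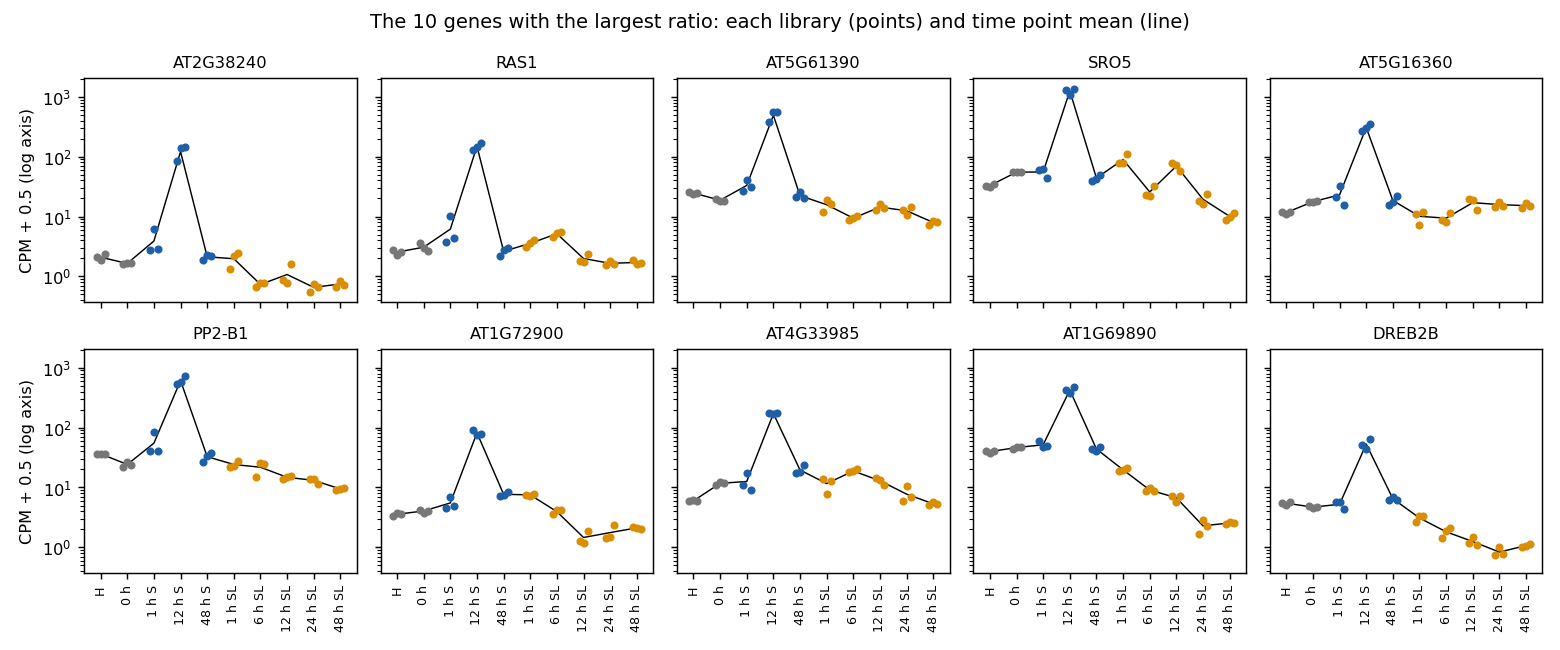
CPM + 0.5 on a log axis (y) at the 10 time points (x) for the 10 genes with the largest ratio, with each library as a point and the mean as a line; grey is dry seed, blue stratification and orange light. In each panel the 3 libraries of 12 h S lie above all others, as in AT2G38240 with 82.9 to 142 CPM against at most 5.59.

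To ask how the members behaved away from their peak, 8 comparisons between time points other than 12 h S were tested with edgeR, with all 23222 genes that passed a filter on low counts in 1 fit. All 150 members passed it. A gene was called at a Benjamini-Hochberg adjusted p below 0.01. Before wetting and in the first hour the number of members called depended on the fit. From H to 0 h 11 members were called, 8 higher (2.56% of all genes tested) and 3 lower (6.26%), against 8.82% in either direction. With DESeq2 size factors the split was 11 higher and 0 lower, and with library size alone 18 and 0. The most raised was RALFL33, a RALF peptide hormone gene, by 1.33 ± 0.26 on the log2 scale (SE, edgeR adjusted p = 0.0012, higher in all 3 libraries), and the most lowered was PERK9, by a log2 change of -0.83 ± 0.22. From 0 h to 1 h S 5 members were called, 4 higher (1.24% of all genes) and 1 lower (2.04%), against 3.28% in either direction. With either of the other scalings 4 were higher and 0 lower. The 4 were AT1G32920 (log2 change 1.23 ± 0.28), AT4G24275, PP2-B1 and AT5G61390, and SZF1, a CCCH zinc finger gene, changed by -0.68 ± 0.16. These small counts did not hold. Without any single library of H or 0 h, 0 to 3 members were called from H to 0 h, with 0 without H replicate 1. With the 6 libraries of H and 0 h alone 93 of the 146 members tested were called, 69 higher and 24 lower, against 54.6% of all genes in that fit. Without any library of 0 h, or without 1 h S replicate 2, none was called from 0 h to 1 h S, and 17 were called without 1 h S replicate 1.

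The choice of genes fixed that the members had come down from their peak by 48 h S. Their levels at 48 h S differed from those at 0 h in both directions. From 0 h to 48 h S 48 members rose (33.2% of all genes rose) and 50 fell (28.5% of all genes), that is 98 of 150 against 61.7%. Their median log2 change was -0.12, against 0.03 for all genes. With scaling by library size alone, which moved the median of all genes to 0.51, the split was 60 higher and 31 lower. The member shares were near those of all genes, so this comparison does not set the members apart. The largest rise was that of GDU1, an amino acid export gene, by 4.80 ± 0.49, a value that rests on 2, 3 and 2 reads at 0 h against 105, 153 and 149 at 48 h S, followed among those named here by CAF1a by 4.21, OST1 by 3.37 and AT1G32920 by 3.18. The largest fall was that of STZ (ZAT10), a zinc finger repressor of salt and cold responses, by -4.49 ± 0.27. STZ held 18.7, 21.2 and 18.6 CPM at 0 h and 1.78, 1.10 and 0.745 CPM at 48 h S. For STZ and the abscisic acid receptor gene PYL11 the level after the peak thus lay below that of dry seed, and for CAF1a and OST1 above it.

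At the transfer from cold and dark to light and warmth more members fell than rose. From 48 h S to 1 h SL 53 members fell, against 3.66% of all genes, and 10 rose, against 4.43%, so that 63 of 150 were called against 8.09% in either direction. The median log2 change was -0.49 for the members and 0.01 for all genes. The means at both time points entered the choice of genes, and 48 h S was the next highest time point for 46 members. How far these falls continue the decline from the chosen peak was not tested. AT1G16510 (SAUR41), of the small auxin-induced RNA family, fell most, by a log2 change of -2.49 ± 0.31 (edgeR adjusted p = 2.22e-06), from 54.1, 45.0 and 65.5 CPM at 48 h S to 11.7, 5.89 and 12.9 CPM. ERF73 (HRE1), a factor of the response to low oxygen, fell by a log2 change of -1.43. With the 6 libraries alone 12 members fell and 4 rose, against 1.46% of genes called in that fit, and without 48 h S replicate 2 the counts were 32 and 5. Without 1 h SL replicate 2 they were 36 and 8, with a median log2 change of -0.37 for the members.

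The rises of the other 10 at 1 h SL differed in size. AT1G72430 (SAUR78) rose most, by 2.85 ± 0.22 (edgeR adjusted p = 5.03e-10), from 14.5, 13.9 and 17.0 CPM at 48 h S to 94.1, 113 and 140 CPM. AT3G23170 rose by 2.65, AT2G25770 by 2.41, AT4G27652 by 2.02 and its neighbour AT4G27654 by 1.54. PHI-1, a gene first known from phosphate-fed tobacco cells, rose by 1.41, and BAG2, RBL7, SRO5 and AT1G76600 rose by 0.90 to 1.20.

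Between 1 h SL and 6 h SL 70 members fell, against 16.8% of all genes, and 6 rose, against 17.3%, for 76 called against 34.1%. The median log2 change was -0.63 for the members and -0.00 for all genes. Without 1 h SL replicate 2 the counts were 80 lower and 4 higher. SLAH2, a nitrate channel gene, fell most, by a log2 change of -4.03 ± 0.31, from 3.50, 6.22 and 5.48 CPM to 0.437, 0.279 and 0.287 CPM. AT1G16510 fell by a log2 change of -3.76, SAUR36 by -3.68, RVE1 by -3.19 and PIF7 by -3.16. The largest rise was that of the uncharacterised gene AT3G19200, by 2.51 ± 0.26. Of the 53 that fell at the transfer to light, 26 (49.1%) fell again by 6 h SL, and 11 of these (20.8% of the 53) fell once more by 12 h SL. Of the 851 genes of all those tested that fell at the transfer, 36.4% and 12.1% did so.

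From 6 h SL to 12 h SL 46 members fell, against 12.9% of all genes, and 9 rose, against 10.7%, with 55 called against 23.6%. RVE2 rose most, by 2.00 ± 0.20, and AT1G72900 fell most, by a log2 change of -2.16 ± 0.24. Without 12 h SL replicate 2 the counts were 28 lower and 7 higher, and with scaling by library size alone 30 and 12. From 12 h SL to 24 h SL 52 fell, against 22% of all genes, and 33 rose, against 25.9%, with 85 called against 47.9%; with scaling by library size alone, which moved the median of all genes to 0.35, 42 fell and 44 rose. STZ rose most, by 3.25 ± 0.30, and AT5G65100, of the EIN3 family of ethylene factors, fell most, by a log2 change of -2.53 ± 0.22.

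From 24 h SL to 48 h SL 34 members fell, against 19% of all genes, and 19 rose, against 21.9%, with 53 called against 40.9%; with scaling by library size alone 31 fell and 29 rose. SLAH2 rose by 4.12 ± 0.31, back to 4.54 to 6.74 CPM, and GPAT1, an acyltransferase of glycerolipid synthesis, fell by a log2 change of -3.90 ± 0.33. Over the 5 comparisons in light 80 members were called lower at least once and never higher, 8 higher and never lower, 52 in both directions and 10 in none. In the same order these were 53.3%, 5.33%, 34.7% and 6.67% of the members, and 28.3%, 34.9%, 18.7% and 18.2% of all genes tested. The choice of genes kept the means of every member in light below its mean at 12 h S, a limit that all genes tested did not have. How much of the difference follows from this limit was not tested.

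**Figure D3:**
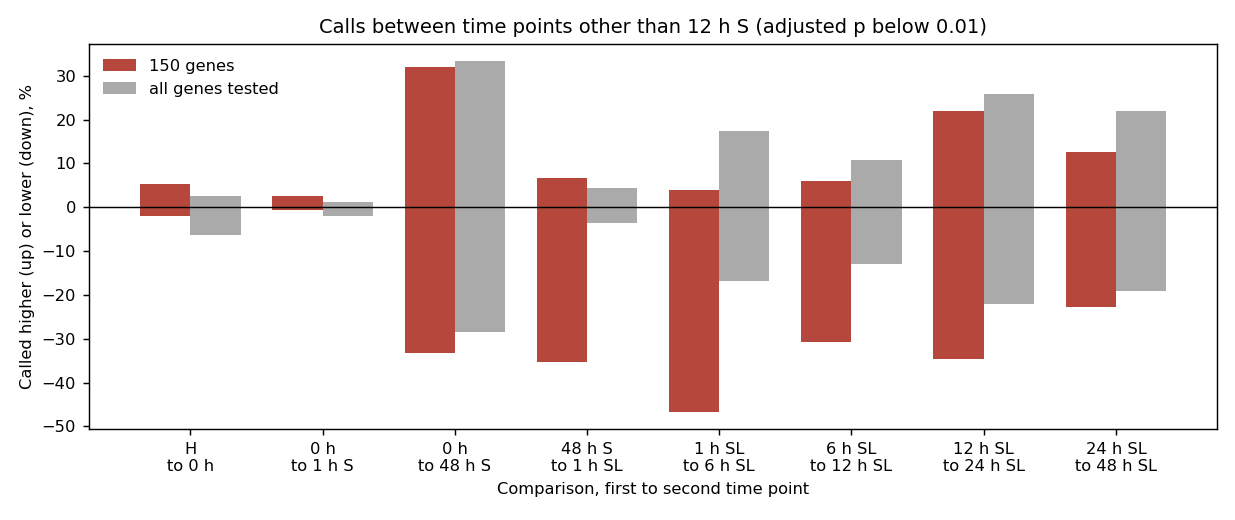
Share of genes called higher (up) or lower (down) in percent (y) in the 8 comparisons that leave out 12 h S (x), for the 150 genes (red) and for all genes tested (grey), at an adjusted p below 0.01. The lower share of the 150 genes is the larger at 48 h S to 1 h SL (53 of 150, against 3.66% of all genes) and at 1 h SL to 6 h SL (70 of 150, against 16.8%), while at 0 h to 48 h S the bars are alike.

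For comparison with the above, all 150 members were called higher from 1 h S to 12 h S, against 18.1% of all genes, and all 150 lower from 12 h S to 48 h S, against 24.8%, which the choice of genes fixed.

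Genes of abscisic acid breakdown, synthesis and sensing stood among the members. These gene families were listed with the members known. In all lists a gene counts as highest at 12 h S only if it had at least 10 CPM there. Of all 8362 nuclear genes at that level 1299 were highest there. The list counts are given as a description. CYP707A2, the hydroxylase gene with the known part in seed abscisic acid breakdown, held 347, 398 and 346 CPM at 12 h S and 27.8, 29.4 and 29.0 CPM at 0 h. It was the only member of 4 CYP707A genes. It stayed above dry seed at 48 h S, by 1.02 on the log2 scale, and then fell by a log2 change of -0.67 at 1 h SL, by -1.27 at 6 h SL and by -1.32 at 12 h SL. NCED5 was the member among 9 abscisic acid synthesis genes, and held 19.0, 16.9 and 17.2 CPM at 12 h S against at most 3.97 CPM in any other library. A gene of synthesis and a gene of breakdown were thus both members, at 8.62 and 156 CPM per kilobase at 12 h S. Their common peak was fixed by the choice of genes.

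Of 14 PYR/PYL receptor genes 12 had at least 10 CPM at 12 h S, 5 were highest there and 2 were members. PYL5 held 308, 394 and 318 CPM at 12 h S and 77.2 to 143 CPM at 1 h SL, its next highest time point. PYL11 held 59.2, 53.2 and 57.6 CPM at 12 h S, 14.3 to 14.8 CPM at 0 h and only 1.26 to 1.90 CPM at 48 h S, a fall of -3.76 between dry seed and 48 h S. Of 10 SnRK2 kinase genes OST1 (SnRK2.6), the kinase of stomatal closure, was the member. It held 223, 221 and 202 CPM at 12 h S and 1.93 to 2.93 CPM at 0 h, fell by a log2 change of -2.12 from 1 h SL to 6 h SL, and lay at 41.8 to 48.5 CPM at 48 h SL. ABR1, an AP2-domain repressor of abscisic acid responses, went the other way in light: from 907 ± 204 CPM at 12 h S (SD, n = 3) its mean went to 52.0 CPM at 48 h S and 2.55 CPM at 48 h SL, with a fall of -2.14 from 0 h to 48 h S. The choice of genes fixed the peak of these receptor and kinase genes, while their levels before and after it differed.

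**Figure D4:**
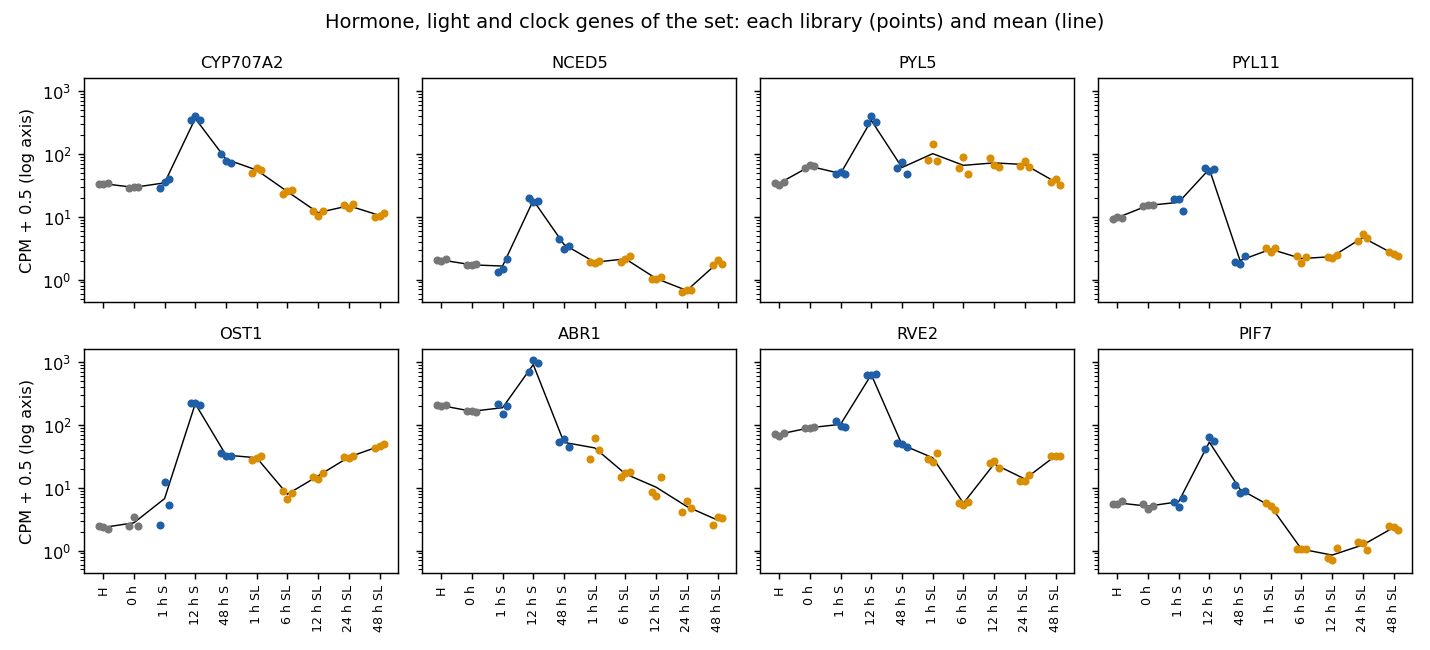
CPM + 0.5 on a log axis (y) at the 10 time points (x) for CYP707A2, NCED5, PYL5, PYL11, OST1, ABR1, RVE2 and PIF7, with each library as a point and the mean as a line; grey is dry seed, blue stratification and orange light. PYL11 lies at 1.26 to 1.90 CPM at 48 h S after 53.2 to 59.2 CPM at 12 h S, whereas OST1 lies at 30.8 to 34.7 CPM at 48 h S after 202 to 223 CPM.

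All of 11 listed REVEILLE, CCA1/LHY and LNK genes, which belong to the circadian clock, had at least 10 CPM at 12 h S. Of these 5 were highest there, and RVE1, RVE2 and AT3G12320 (LNK3) were members. RVE1, a repressor of germination in seed, had a mean of 45.0 CPM at 12 h S and 10.3 CPM at 48 h S. RVE2 held 616, 619 and 645 CPM at 12 h S, fell by a log2 change of -2.65 from 1 h SL to 6 h SL and rose again by 12 h SL. In the same step 9 of the 11 genes fell and none rose, with AT3G12320 at -1.66. PIF7, a bHLH factor of shade responses, held 40.1, 62.9 and 54.7 CPM at 12 h S and 0.540 to 0.575 CPM at 6 h SL.

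Both DREB2 genes among the members, DREB2B and DREB2C, ended the time course low, with falls of -1.60 and -1.65 from 12 h SL to 24 h SL. SRO5 and SRO2 were the members among 6 RCD1 and SRO genes. SRO5 fell by a log2 change of -1.96 from 1 h SL to 6 h SL, rose again by 12 h SL and fell by a log2 change of -2.15 to 24 h SL, so that its small peaks alternated with low levels.

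Of 14 WRKY genes with at least 10 CPM at 12 h S 3 were members (21.4%, against 1.79% of all genes at that level). WRKY18, a factor of defence responses, had a mean of 449 CPM at 12 h S, WRKY11 134 CPM and WRKY48 17.8 CPM. The next highest mean was 102 CPM at 1 h S for WRKY18, 29.1 CPM at 24 h SL for WRKY11 and 4.54 CPM at 48 h SL for WRKY48. In a list of 16 stress WRKY genes 6 had at least 10 CPM at 12 h S, and 3 were highest there, the same number as the members. Factors with an AP2 domain among the members included DREB2B, DREB2C, ERF73, ABR1 and CRF4, a cytokinin response factor. Among 9 hypoxia genes, all with at least 10 CPM at 12 h S, 6 were highest there. ERF73 was the member, with a mean of 110 CPM at 12 h S and a rise of 1.45 from 0 h to 48 h S.

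The MYB genes MYB109, MYB30 and MYB32 had means of 78.2, 163 and 30.3 CPM at 12 h S, and MYB96, which acts in abscisic acid responses, 28.7 CPM. Among zinc finger genes PMZ (SAP12), AT1G02610 and ZF2 (AZF2) had the largest ratios, with means of 357, 125 and 60.8 CPM. Of 6 zinc finger genes of the ZAT and AZF class 5 had at least 10 CPM at 12 h S and 4 were highest there. Of 15 early cold-induced transcription factor genes 9 had at least 10 CPM at 12 h S, 6 were highest there and STZ alone was a member. None of 10 cold-regulated targets of the CBF factors was a member, and 1 was highest at 12 h S. Of these targets 6 had at least 10 CPM at 12 h S, a level at which 1.79% of all genes were members.

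JAZ8, a repressor of jasmonate responses, held 30.9, 20.9 and 26.4 CPM at 12 h S and 0.480 to 0.673 CPM at 48 h S, and fell by a log2 change of -3.29 from 0 h to 48 h S. It was the member of 19 jasmonate signalling genes, of which 15 had at least 10 CPM at 12 h S and 4 were highest there. Of 14 listed synthesis genes 9 had that level and none was highest there. Of 11 gene identifiers listed for jasmonate turnover 2 were highest at 12 h S and 1 was a member, the first-ranked AT2G38240. For 4 of the 11, AT2G38240 among them, the reference does not give the listed name. Of the 7 others 5 had at least 10 CPM at 12 h S and none was highest there. NPR3, a salicylic acid receptor gene, had a mean of 128 CPM at 12 h S and between 7.86 and 21.9 CPM elsewhere, and none of the 8 comparisons called it. TGA3, a bZIP partner of the NPR proteins, had 114 CPM at 12 h S and 37.5 CPM at 48 h S. CAF1a, a deadenylase that shortens poly(A) tails, held 134, 119 and 143 CPM at 12 h S and 0.654 to 1.36 CPM at 0 h.

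Of 12 SAUR genes with at least 10 CPM at 12 h S 5 were members (41.7%). AT5G53590 (SAUR30), AT1G72430 (SAUR78) and SAUR36 had the largest ratios, and AT1G16510 (SAUR41) and AT2G35290 (SAUR79) were the others. Their courses in light differed: AT1G72430 rose at 1 h SL, AT1G16510 fell, and SAUR36 dropped to 2.14 CPM at 6 h SL after 232 CPM at 12 h S. In membrane traffic, AT2G18860 (a syntaxin-like gene), SYP42 and AT3G51890 (a clathrin light chain) held at least 85.7, 33.8 and 53.5 CPM in each library of 12 h S, against at most 24.7, 12.3 and 27.3 CPM elsewhere. Among 200 kinase genes at that level 6 were members (3%), of which OST1, AT1G70740 and AT3G59350 had the largest ratios. No member was a protein phosphatase 2C, a heat shock protein or a peroxidase by annotation, out of 36, 35 and 16 genes with at least 10 CPM at 12 h S. Since 1.79% of all genes at that level were members, nothing is read from these absences.

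Isoform abundance was read from the deposited transcript table in TPM, a share of all transcripts corrected for length, estimated from the same libraries. For 51 members both leading isoforms had a mean above 0.1 TPM, and 96 members were listed with 1 isoform. The log2 ratio of both isoforms was called changed for 14 of 50 members from 0 h to 12 h S, against 15.4% of all genes tested, and for 10 of 47 from 12 h S to 48 h S, against 5.73%. These comparisons contain 12 h S and are given as a description. Where the rarer isoform was near 0 the ratio moved with the level of the gene itself, as for DFL2, the largest rise of the ratio (4.39 ± 0.26, SE), whose rarer isoform stood at 0.246 TPM at 0 h and 0.227 TPM at 12 h S. With both isoforms above 1 TPM on average the calls were 8 and 5.

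In TPPJ, a trehalose phosphatase gene, the rarer isoform AT5G65140.3 went from 0.213, 0.526 and 0.750 TPM at 0 h to 36.0, 35.8 and 36.8 TPM at 12 h S, while AT5G65140.1 went from 20.5 to 63.5 TPM. The log2 ratio changed by -4.43 ± 0.37, the lowest value of the 14. In SLAH2 isoform AT4G27970.2 went from 0.466 to 7.56 TPM and AT4G27970.1 from 4.55 to 5.91 TPM. In AT3G05700, a drought-responsive family gene, AT3G05700.1 went from 5.92 TPM to 30.3, 39.1 and 35.5 TPM at 12 h S and back to 3.97 TPM at 48 h S, while AT3G05700.2 stayed between 14.8 and 20.3 TPM. In these 3 genes the isoform that was the rarer over all libraries gained more in proportion than the leading one.

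In CIPK3, a calcium-regulated kinase gene, the reverse was seen. AT2G26980.1 went from 16.5 TPM at 0 h to 189 TPM at 12 h S and 41.0 TPM at 48 h S, and AT2G26980.4 from 26.5 to 51.2 and 40.0 TPM. SZF1 had the lowest change of the ratio from 12 h S to 48 h S (-2.63 ± 0.42), with a rarer isoform of at most 0.535 TPM in those 6 libraries, and AT3G05700 the highest (2.66 ± 0.51), which was 2.12 and no longer called without 48 h S replicate 3.

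**Figure D5:**
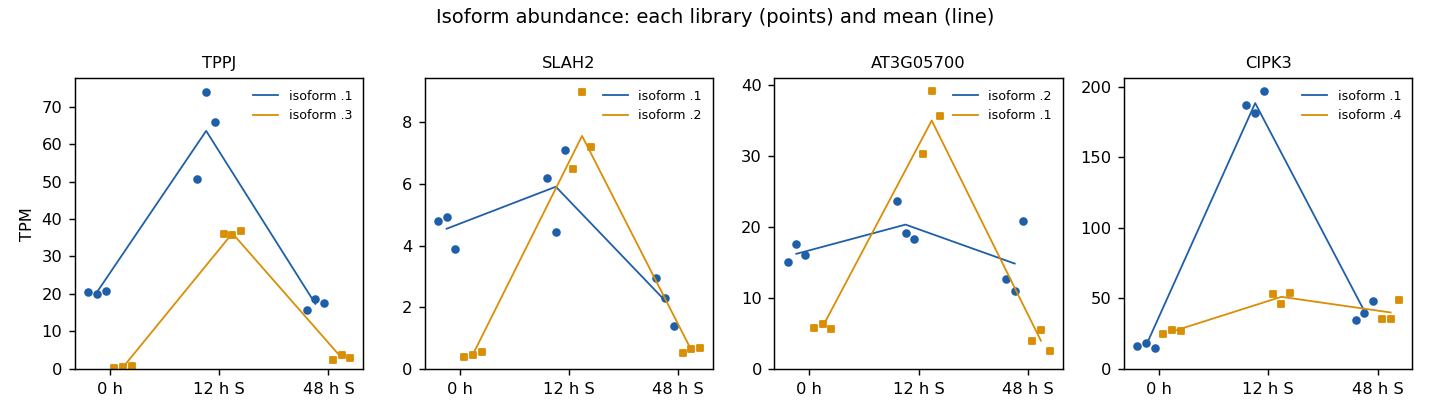
Abundance in TPM (y) of the 2 leading isoforms of TPPJ, SLAH2, AT3G05700 and CIPK3 at 0 h, 12 h S and 48 h S (x), with each library as a point and the mean as a line. In TPPJ the orange isoform rises from 0.497 to 36.2 TPM between 0 h and 12 h S, and in CIPK3 the blue isoform goes from 16.5 to 189 TPM.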

How the data were processed

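Per the labels, libraries were made with the TruSeq Total RNA kit, with poly(A) selection and without strand. Per the labels and the study's methods, the authors trimmed reads (Trim Galore 0.4.2), aligned them to TAIR10 (HISAT2 2.0.5) and counted reads per gene (featureCounts 1.5.1); the deposited counts were used without change. Transcript abundances, a deposited signal in TPM scaled by sleuth 0.28.1, came from Salmon 0.7.2. Tables of the authors' own comparisons, which hold fold changes and p-values, were not used.

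Members were taken by CPM as described. The members and gene lists were chosen with earlier results of these data known. List counts cover the 207 of 223 listed genes whose name the reference gives, unless stated. Named genes were the 10 largest ratios, 3 genes on each side of the limit, list members, the largest called changes and up to 3 genes per family. Calls came from edgeR 4.0.16 (TMM, filterByExpr with a minimum count of 10, quasi-likelihood test, time point as factor, all 30 libraries). Isoform ratios used limma 3.58.1 on log2 values with 0.1 added, in genes of at least 1 TPM at both time points. Both scripts were tested on simulated data. Same-numbered replicates of 6 h SL and 12 h SL deviated together weakly (correlations 0.12, 0.13 and 0.23, against at most 0.11 between different numbers). No label states a shared batch, and they were not treated as paired. Other comparisons had at least 1 correlation below 0.1. Alternatives were other scalings, no filter, DESeq2 1.42.0, fewer libraries and a replicate block. Promoters were read from RefSeq TAIR10.1.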

Additional observations from a re-analysis of the deposited data

How the results depend on the processing

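The set itself held under other settings: of the 150 genes 123 were shared with CPM scaled by TMM, 136 to 145 with another offset, minimum or the median, and 138 to 144 when libraries were left out. Of 552 refits of 46 named gene changes none changed direction, and 25 lost the call, all for AT1G32920 and SZF1 from 0 h to 1 h S and PERK9 and RALFL33 from H to 0 h. The cause of the shifts below was not tested. From H to 0 h, where 11 members were called, library size alone gave 18 (5.91% of all genes called), the DESeq2 Wald test 27 (10.8%), the 6 libraries alone 93 (54.6%) and leaving out a library 0 to 3. From 0 h to 1 h S, where 5 were called, DESeq2 gave 16, the 6 libraries alone 0 (28 at an unadjusted p below 0.05), the replicate block 2 and leaving out a library 0 to 17. From 48 h S to 1 h SL, where 63 were called, the 6 libraries alone gave 16 and leaving out a library 37 to 51. From 6 h SL to 12 h SL, where 55 were called, leaving out a library gave 35 to 45. The replicate block moved no other count by more than 1.5 times. The isoform calls from 12 h S to 48 h S, 10 in number, were 21 with 1 TPM added, 5 with both isoforms above 1 TPM and 6 to 8 without a library, and those from 0 h to 12 h S, 14 in number, were 22, 8 and 10 to 12. Of 229 refits of the called isoform changes none changed direction and 38 lost the call. Genes below 1 CPM at a time point, 2 to 21 members, are measured from few reads there.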

Other observations

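Among loci that the count table lists without an Arabidopsis gene identifier, XLOC_012930 (chr2:11163223-11164018) passed the same limit as the 150 genes. It held 10.3 ± 0.55 CPM at 12 h S (SD, n = 3) and at most a mean of 2.95 CPM at another time point, a ratio of 3.13. It overlapped no annotated feature.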
